A study of Mus musculus with 46 samples.

Results

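The albumin family and the fetuins are plasma proteins that hepatocytes make and secrete, and 7 of their genes were followed here through 46 mouse livers. Alb encodes albumin, Afp alpha-fetoprotein, Afm afamin, Gc the vitamin D binding protein, Ahsg fetuin-A, Fetub fetuin-B and Ttr transthyretin. The 7 genes were taken by name from the 55416 Ensembl genes of the count tables, and all 7 had an entry and passed the filter on low counts in every comparison. The family was chosen by values measured in these livers, namely levels, shares of counts and knockout differences, so their levels and their knockout differences are descriptions. Calls of members in the knockout contrasts are counted beside the share of all genes called, without a p for any member, and nothing is supported with them.

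Bulk RNA sequencing covered male mice in 10 groups, and the livers had been snap-frozen. In 8 groups the mice came from a line with a targeted Plvap allele (Plvaptm1.1Salm) and Tg(Lrat-cre)1Rshw, with the strain given as C57BL/6JBomTac. Cre was driven by the Lrat promoter, whose activity marks hepatic stellate cells (pericytes that store retinoids). The controls were labelled littermates, and which of these alleles they carried is not stated here. Plvap encodes a protein of the diaphragms of caveolae and of endothelial fenestrae, and the genes described here are made in another cell type, the hepatocyte. On chow after a 12 h overnight fast there were 6 control and 5 Plvap knockout livers. On chow after a 10 h fast followed by 2 h of refeeding there were 4 of each. The diet groups were fed for 6 weeks and then fasted for 12 h. Western diet, given together with fructose as a drink, had 5 control livers and 4 knockouts, while high-fat diet with plain water had 5 and 5. In the remaining groups, whole-body Cav1 knockouts (STOCK Cav1tm1Mls/J, 4 livers) were set against C57BL/6N wild types (4 livers), both on chow and fasted for 6 h. Caveolin-1, its product, coats caveolae. Knockout and wild type came from different stocks, so Cav1 genotype and stock cannot be told apart.

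Albumin is the main protein of plasma. It holds water in the vessels and carries fatty acids, bilirubin, hormones and drugs. Alpha-fetoprotein takes its place before birth and is shut off in the adult liver, afamin binds vitamin E and Wnt proteins, and the vitamin D binding protein carries vitamin D metabolites and captures actin released from damaged cells. These 4 genes descend from a common ancestor. The fetuins belong to the cystatin superfamily: fetuin-A keeps calcium phosphate from precipitating in blood, and fetuin-B inhibits the protease that hardens the coat of the egg. Transthyretin is unrelated in sequence and carries thyroxine and retinol-binding protein.

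The genes form 2 clusters on GRCm39, the build of the deposited tables. On chromosome 5, Alb (ENSMUSG00000029368) spans 90608756 to 90624461, Afp (ENSMUSG00000054932) begins 14.1 kb further at 90638596 and ends at 90656766, and Afm (ENSMUSG00000029369) follows after 10.0 kb, from 90666791 to 90701402. Gc (ENSMUSG00000035540) lies 1003 kb before Alb on the opposite strand, from 89565381 to 89605757. On chromosome 16, Ahsg (ENSMUSG00000022868, 22710027 to 22718199) and Fetub (ENSMUSG00000022871, 22737084 to 22758528) are 18.9 kb apart. Ttr lies apart from both. Afp, Afm and Ahsg each overlap a predicted gene on the other strand (Gm43449, Gm42109 and Gm30505, with means of 22.1, 6.3 and 42.2 counts per liver), and without a stated counting strand their reads cannot be told apart from those of the partner. This bears on Afp, which had only 9 to 71 counts per liver.

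The sequence just before each start site is shown because the promoters of the albumin cluster and those of the fetuins differ in one short motif, GTTAAT. Capitals mark GTTAAT, or ATTAAC where it reads on the opposite strand. Each line is the 150 bases that end at the base before the RefSeq start, 5′ to 3′ on the strand of the gene, from RefSeq on GRCm38.p6, a build earlier than that of the counts. For Alb the window is chr5:90460720-90460869, for Afp chr5:90490564-90490713, for Afm chr5:90518799-90518948, for Gc chr5:89457899-89458048 on the minus strand, for Ahsg chr16:22891865-22892014 and for the first start of Fetub chr16:22918232-22918381.
Alb: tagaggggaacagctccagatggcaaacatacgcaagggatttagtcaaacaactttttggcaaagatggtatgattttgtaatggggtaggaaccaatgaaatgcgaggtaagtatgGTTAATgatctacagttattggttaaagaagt
Afp: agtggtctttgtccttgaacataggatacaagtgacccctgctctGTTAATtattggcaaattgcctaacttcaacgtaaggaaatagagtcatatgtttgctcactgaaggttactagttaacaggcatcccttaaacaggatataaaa
Afm: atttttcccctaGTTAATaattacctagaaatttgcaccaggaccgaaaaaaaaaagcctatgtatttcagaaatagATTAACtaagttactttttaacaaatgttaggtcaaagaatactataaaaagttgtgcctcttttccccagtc
Gc: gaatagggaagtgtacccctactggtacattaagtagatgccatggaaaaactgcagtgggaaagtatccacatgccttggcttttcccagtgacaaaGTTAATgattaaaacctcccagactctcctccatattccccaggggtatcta
Ahsg: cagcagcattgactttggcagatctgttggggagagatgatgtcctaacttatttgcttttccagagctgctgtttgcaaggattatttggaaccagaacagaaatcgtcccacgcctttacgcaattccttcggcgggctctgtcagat
Fetub: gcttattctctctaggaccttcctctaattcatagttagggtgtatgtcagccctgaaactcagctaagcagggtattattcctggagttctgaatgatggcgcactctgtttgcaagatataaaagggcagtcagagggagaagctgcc
RefSeq sequences were matched for 6 of the 7 members. Searched on both strands over the 250 bases before the start, GTTAAT began 32 bases upstream in Alb, 105 in Afp, 52 in Gc, and 138 and, on the opposite strand, 73 in Afm. It was not found in that window of Ahsg or at either start of Fetub. Of 32851 mouse promoters of the same length, 6.43% held it. The TATA letters TATAAA began 7 bases upstream in Afp, 30 in Afm and 31 at the first start of Fetub, against 12.4% of all promoters. They were not found in the windows of Alb, Gc or Ahsg. All distances are counted from the RefSeq start used and shift with it. CCAAT was found in Alb (56 bases upstream, and 15 on the opposite strand), Afp, Afm, Gc and Fetub, against 33.8%. None of these matches overlapped another. A match of letters is a description and does not show a bound site.

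The libraries held 6656342 to 23311539 counts, with a median of 15454437. Plvap was at 4.04 to 11.5 CPM in the Plvap knockouts against 18.6 to 41.7 in their controls, and Cav1 was 0.431 to 1.49 CPM in the Cav1 knockouts against 3.82 to 6.12 in wild types, as labelled. Lrat, whose promoter drives the Cre, was at 7.36 to 26.2 CPM in the livers of the Plvap line. CPM are the counts of a gene per 1000000 counts of the library, scaled over all 46 livers by trimmed mean of M-values (TMM). The tissue label held: 10 hepatocyte markers outside the family summed to between 18783 and 38088 CPM in every liver, and none was at 0. In whole tissue, fewer cells of a type and less RNA per cell cannot be told apart. No count of a mitochondrial gene was present in the refed livers, against shares of 3.35 to 6.85% elsewhere, so shares of all counts in the refed livers are over a smaller total.

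Alb was the most counted gene in 44 of the 46 livers. Serpina3k, a protease inhibitor gene, led in the other 2. The 7 members together took 4.50 ± 0.351% of all counts in fasted chow controls (SD, n = 6) and 7.54 ± 0.820% in fasted chow Plvap knockouts (n = 5). They took 6.43 ± 0.717% and 9.46 ± 0.430% after refeeding (n = 4 each), 4.52 ± 0.634% (n = 5) and 6.26 ± 1.29% (n = 4) on western diet, and 4.18 ± 0.507% and 7.41 ± 1.15% on high-fat diet (n = 5 each). In C57BL/6N wild types the share was 7.20 ± 0.501% and in Cav1 knockouts 9.69 ± 1.17% (n = 4 each). Alb alone made up between 57.7% and 80.3% of the members' counts in a liver.

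Per kilobase of exon, Alb was the highest member and Fetub, Afm and Afp the lowest, in that order, in all 46 livers. Between them Ahsg, Ttr and Gc changed places: the order Ahsg, Ttr, Gc held in 25 livers, Ttr, Ahsg, Gc in 13, Ahsg, Gc, Ttr in 4 and Ttr, Gc, Ahsg in 4. In fasted chow controls the levels were 13453 ± 1097 CPM per kb for Alb, 3183 ± 482 for Ahsg, 2684 ± 402.6 for Ttr, 2522 ± 260 for Gc, 297 ± 65.9 for Fetub, 36.1 ± 3.68 for Afm and 0.46 ± 0.103 for Afp (SD, n = 6).

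All 7 members had higher means in the knockouts in all 5 knockout experiments, so that 35 of 35 log2 fold changes were positive. Of all genes tested 49%, 51.1%, 46.2%, 51.5% and 53.9% were positive in the fasted chow, refed, western, high-fat and Cav1 experiments. With a library left out, Afm in the Cav1 experiment and Ttr after refeeding went as low as -0.03. Under the alternative fits Ttr after refeeding went as low as -0.01. Of the 35, 7 were called by edgeR's quasi-likelihood test at an adjusted p under 0.05. In fasted chow livers Alb, Afm, Ahsg and Fetub were called, 4 of 7 members, where 1.13% of the 12840 genes tested were called higher. In Cav1 knockouts Alb and Ahsg were called, where the share of all 12978 genes was 2.57%, and on high-fat diet Alb, where it was 0.200% of 13533. The calls of Alb and Afm in fasted chow livers, of Alb on high-fat diet and of Ahsg in Cav1 knockouts stood whichever library was left out. In fasted chow livers Ahsg lost its call without replicate A, B or C of the controls or B, D or E of the knockouts, and Fetub without these, replicate D of the controls or replicate A of the knockouts, at log2 fold changes of 0.49 to 0.61 and 0.57 to 0.74 over all libraries left out. Alb lost its call in the Cav1 experiment without any 1 of the wild types or replicate A or D of the knockouts, at 0.44 to 0.63. After refeeding and on western diet none of the members was called, where the shares of all genes called higher were 0 and 0.00739%. At an unadjusted p under 0.05 edgeR had 4 of 7 members in each of these experiments (7.74% and 9.79% of all genes). After refeeding edgeR called 3 genes in all, and 30 with the replicate letter as a block, none of them a member. DESeq2 called Alb and Afm after refeeding and Alb on western diet, and limma-voom Alb after refeeding and none on western diet. Every knockout liver was above every control liver for 3, 4, 2, 3 and 3 members in the fasted chow, refed, western, high-fat and Cav1 experiments, against 1.27%, 2.71%, 1.71%, 1.90% and 4.79% of all genes. The median log2 fold changes of the members were 0.56, 0.30, 0.34, 0.46 and 0.33 in the same order, beside -0.01, 0.01, -0.02, 0.01 and 0.02 for all genes tested. Genes were called higher and lower in numbers of 145 and 144, 27 and 11, and 333 and 274 in the fasted chow, high-fat and Cav1 experiments, and 83 and 184, 8 and 26, and 240 and 303 with raw library totals. Nothing is read from these shares, or from calls that stood or fell with a library or a tool, because the family was chosen with these contrasts in view.

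**Figure D1:**
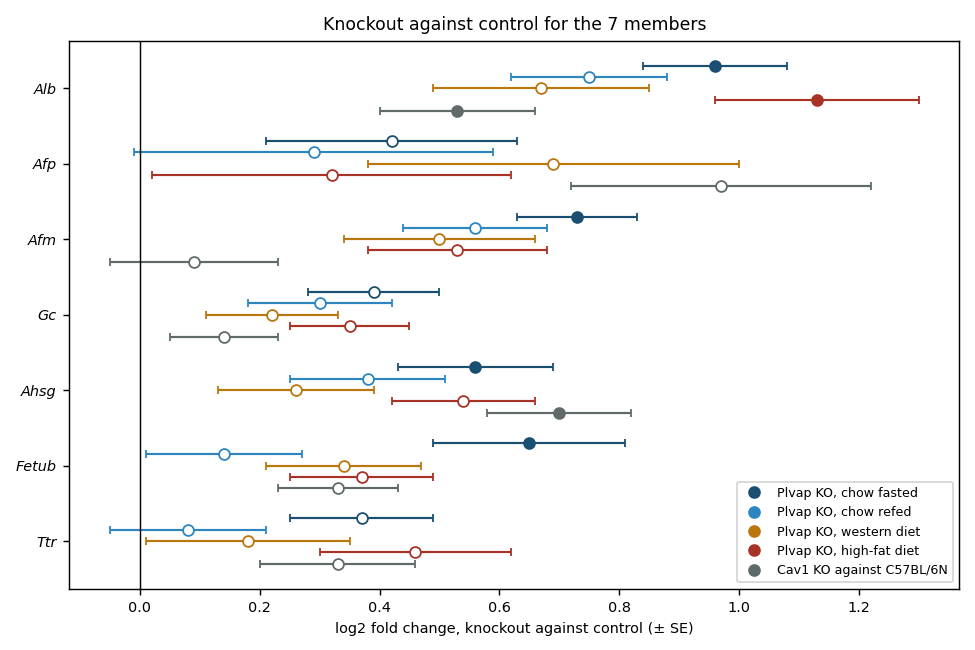
Log2 fold change of each member in knockout against control livers with its standard error, in the 5 knockout experiments; filled points were called by edgeR at an adjusted p under 0.05 and open points were not. All points lie right of 0, and Alb has the highest value in fasted chow (0.96), refed (0.75) and high-fat (1.13) livers.

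Alb was higher in every knockout liver than in every control liver of the same experiment, in all 5 experiments. In fasted chow controls it ranged from 28223 to 35018 CPM with a median of 30735, and the 5 knockouts had 56889.7, 76454, 56598, 57659 and 59707 CPM. The means were 31508 ± 2569 and 61462 ± 8468 CPM, so that the knockouts stood at 195% of control (log2 fold change 0.96 ± 0.12, SE). Replicate B of the knockouts was well above the other 4.

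**Figure D2:**
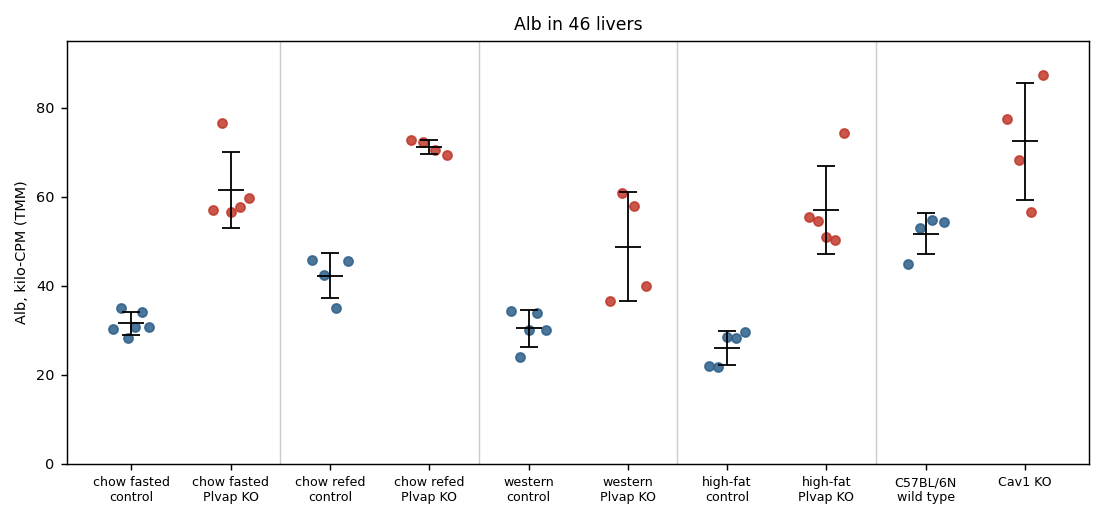
Alb level in each of the 46 livers, in kilo-CPM scaled by TMM, with the mean and SD of each group; blue points are controls and red points knockouts, and vertical lines separate experiments. Within each experiment the red points lie above the blue ones, for example 56598 to 76454 against 28223 to 35018 CPM in fasted chow livers.

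After refeeding, the 4 controls had 45791, 42454, 34979 and 45634 CPM of Alb and the 4 Plvap knockouts 72642, 72277, 70538 and 69302. The knockouts were even, with an SD of 1558 around a mean of 71190 CPM, while the controls averaged 42214 ± 5063 CPM. The log2 fold change was 0.75 ± 0.13.

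On western diet the 5 controls had 34278, 23906, 29942, 33749 and 29948 CPM of Alb. The 4 knockouts fell into a lower and a higher pair, with 36583 and 39824 CPM in replicates A and D and 60792 and 57867 in B and C. Their mean of 48767 ± 12327 CPM stood at 161% of the control mean of 30365 ± 4148 (log2 fold change 0.67 ± 0.18). On high-fat diet the 5 controls had 21981, 21632, 28375, 28278 and 29516 CPM and the 5 knockouts 55307, 54399.9, 50812, 50189.7 and 74205. Here the means were 25956 ± 3821 and 56983 ± 9878 CPM, at 220% of control (1.13 ± 0.17), and replicate E of the knockouts was the highest liver of the diet experiment.

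In the experiment on Cav1 the 4 wild types had 44888, 52897, 54646 and 54226 CPM of Alb and the 4 knockouts 77390.3, 68285, 56499 and 87384. The knockout mean of 72390 ± 13155 CPM stood at 140% of the wild-type mean of 51664 ± 4579 (log2 fold change 0.53 ± 0.13). Replicate C of the knockouts came close to the highest wild type.

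Ordered by their means, the groups ran from high-fat controls (25956 CPM) through western controls, fasted chow controls, refed controls (42214), western knockouts, C57BL/6N wild types, high-fat knockouts, fasted chow knockouts and refed knockouts to Cav1 knockouts (72390). Each group overlapped its neighbour in this order.

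Afm, the nearest relative of Alb with an appreciable level, was higher in each of the 4 Plvap knockout groups than in its controls. In fasted chow controls it ranged from 93.4 to 124 CPM with a median of 110, and the 5 knockouts had 193, 208, 166, 154 and 188 CPM, without overlap (log2 fold change 0.73 ± 0.10). In refed controls it was 157, 132, 128 and 157 CPM and in refed knockouts 225, 225, 222 and 179, again without overlap (0.56 ± 0.12). The groups overlapped on western diet, with 101 to 136 CPM in controls and 127 to 201 in knockouts (0.50 ± 0.16), and on high-fat diet, with 103 to 149 and 135 to 241 (0.53 ± 0.15). In the Cav1 experiment Afm was already 189 to 240 CPM in wild types, and the knockouts had 165 to 283 (0.09 ± 0.14).

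Afp was low in every group, with group means between 1.33 and 3.11 CPM. Its log2 fold changes were 0.42 ± 0.21, 0.29 ± 0.30, 0.69 ± 0.31 and 0.32 ± 0.30 in the fasted chow, refed, western and high-fat Plvap knockouts. In the Cav1 experiment the wild types had 1.13, 1.70, 2.23 and 1.52 CPM and the knockouts 2.96, 3.69, 3.30 and 2.48, without overlap (0.97 ± 0.25). These rest on 17 to 56 counts per liver. Without a stated counting strand they cannot be told apart from reads of the overlapping predicted gene Gm43449, whose own log2 fold change there was 1.62.

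Gc differed less. Its means were 4653 ± 479 and 6092 ± 643 CPM in fasted chow controls and knockouts (log2 fold change 0.39 ± 0.11), and replicate C of the knockouts, at 5001 CPM, lay within the control range of 4013 to 5176. The groups did not overlap after refeeding (3868 to 4450 against 4700 to 5700 CPM, 0.30 ± 0.12), on western diet (4076 to 4530 against 4742 to 5423, 0.22 ± 0.11) or on high-fat diet (3904 to 4420 against 4580 to 6181, 0.35 ± 0.10). In the Cav1 experiment they did (4575 to 5369 against 4859 to 5989, 0.14 ± 0.09).

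Ahsg had the greatest difference of the members above 10 CPM in Cav1 knockouts. The 4 wild types had 4190.5, 5631, 5527 and 4379 CPM and the 4 knockouts 8814, 7072, 7185 and 7852, without overlap (log2 fold change 0.70 ± 0.12). In fasted chow controls it ranged from 5852 to 8265 CPM with a median of 6773, and the 5 Plvap knockouts had 8919, 11725, 8929.5, 9489 and 12469.7, which did not overlap them (0.56 ± 0.13). The groups did not overlap after refeeding (4995 to 6976 against 7442 to 8398 CPM, 0.38 ± 0.13) or on high-fat diet (6069 to 7903 against 9173 to 10974, 0.54 ± 0.12). They overlapped on western diet (5527 to 8545 against 7815 to 9292, 0.26 ± 0.13).

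Fetub, the neighbour of Ahsg, was lower in level and varied more. In fasted chow controls it ranged from 424.5 to 764 CPM with a median of 558, and the 5 knockouts had 987, 1074, 663, 781 and 1047. Replicate C of these knockouts lay within the control range (log2 fold change 0.65 ± 0.16). The log2 fold changes were 0.14 ± 0.13 after refeeding, 0.34 ± 0.13 on western diet, 0.37 ± 0.12 on high-fat diet and 0.33 ± 0.10 in the Cav1 experiment, and the groups overlapped in each.

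Ttr (ENSMUSG00000061808, chromosome 18, 20798337 to 20807378) overlapped between knockout and control livers in all 5 experiments. Its means were 3183 ± 477 and 4112 ± 378.1 CPM in fasted chow controls and knockouts (log2 fold change 0.37 ± 0.12) and 3780 ± 261 and 4004 ± 426.6 after refeeding (0.08 ± 0.13). On western diet they were 3353 ± 302 and 3832 ± 597 (0.18 ± 0.17), on high-fat diet 3212 ± 492 and 4427 ± 1105 (0.46 ± 0.16), and in wild types and Cav1 knockouts 5006 ± 205 and 6067 ± 1133 (0.33 ± 0.13).

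**Figure D3:**
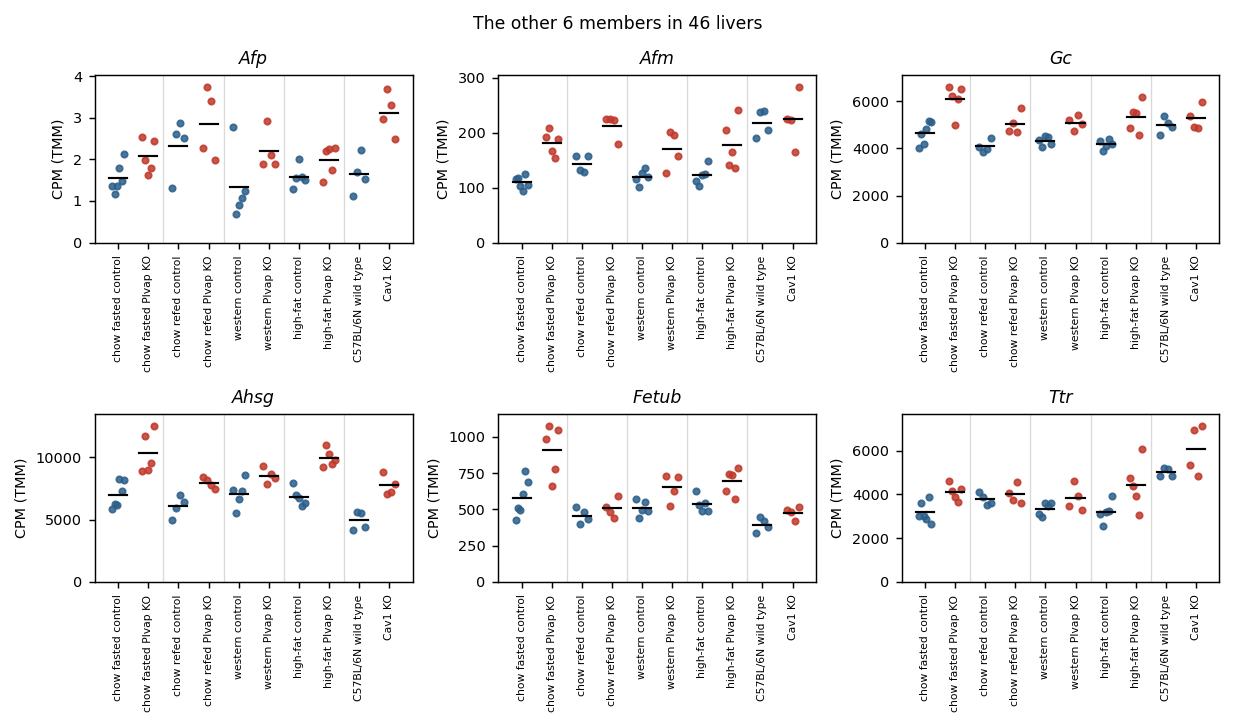
Levels of Afp, Afm, Gc, Ahsg, Fetub and Ttr in each of the 46 livers, in CPM scaled by TMM, with the group mean as a bar; blue points are controls, red points knockouts, and grey lines separate experiments. Afm separates in fasted chow livers (93.4 to 124 against 154 to 208 CPM) and lies level in C57BL/6N wild types and Cav1 knockouts (189 to 240 against 165 to 283).

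The groups in which a member was lowest and highest differed between members. Afm was lowest in fasted chow controls (110 ± 11.2 CPM) and about as high in C57BL/6N wild types (218 ± 25.1) as in Cav1 knockouts (224 ± 48.1). Ahsg and Fetub were lowest in C57BL/6N wild types (4932 ± 752 and 396 ± 48.5 CPM) and highest in fasted chow Plvap knockouts (10306 ± 1672 and 910 ± 179). Gc was lowest in refed controls (4095 ± 250) and highest in fasted chow knockouts (6092 ± 643). Ttr was lowest in fasted chow controls (3183 ± 477) and highest in Cav1 knockouts (6067 ± 1133). These levels are set across tables, in which experiment, fasting time and stock differ together.

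The Plvap difference was compared between the diets, which share a table. The log2 fold change of Alb was larger on high-fat than on western diet by 0.46 ± 0.24 (SE), that of Ahsg by 0.28 ± 0.18 and that of Ttr by 0.27 ± 0.23, and for Afp it was smaller, by -0.37 ± 0.43. For Afm, Gc and Fetub the differences were 0.03 ± 0.23, 0.12 ± 0.15 and 0.03 ± 0.18. None of the 7 members was called for this difference by edgeR, DESeq2 or limma-voom, and none had an unadjusted p under 0.05 in edgeR (11.4% of all genes). Across all 13533 genes edgeR called 0 and DESeq2 56. Like the knockout contrasts it is made of, this difference is a description.

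Differences between diets and feeding states were not among the contrasts by which the family was chosen, and they were tested between groups of the same genotype. The levels of all groups, however, were among the values by which the family was chosen. The p-values of these comparisons are therefore descriptions, and nothing is supported with them. Between western and high-fat controls no member was called by edgeR (2.09% of 13533 genes), and none had an unadjusted p under 0.05 (15.1%). DESeq2 and limma-voom called none either. Alb was 30365 ± 4148 CPM on western and 25956 ± 3821 on high-fat diet (n = 5 each, log2 difference 0.23 ± 0.17, edgeR adjusted p = 0.566). The other members differed by -0.22 ± 0.31 (Afp) to 0.06 ± 0.16 (Ttr), with edgeR adjusted p from 0.811 to 0.958. Between western and high-fat Plvap knockouts, where 8.45% of all genes were called and 26.8% had an unadjusted p under 0.05, the same held for the 7 members in the 3 tools. Alb differed by -0.23 ± 0.18 (edgeR adjusted p = 0.436) and Ahsg by -0.23 ± 0.13 (0.269).

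Refed controls were compared with fasted chow controls, which are in another table, so that feeding state and table cannot be told apart. Alb was higher in the refed livers, at 34979 to 45791 CPM against 28223 to 35018, with 1 refed liver just inside the fasted range (log2 difference 0.42 ± 0.14, edgeR adjusted p = 0.0137). Afm was higher too, at 128 to 157 against 93.4 to 124 CPM without overlap (0.39 ± 0.14, edgeR adjusted p = 0.0203). Fetub was lower, at 399 to 514 against 424.5 to 764 CPM (-0.35 ± 0.15, edgeR adjusted p = 0.0452). These were 3 of 7 members in a comparison in which edgeR called 46.9% of the 14234 genes tested, and 1 of 7 members lay above without overlap, beside 17.0% of all genes. Afp (0.58 ± 0.26), Ttr (0.25 ± 0.14), Gc (-0.18 ± 0.10) and Ahsg (-0.20 ± 0.12) were not called, with edgeR adjusted p from 0.0677 to 0.186.

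The refed comparison depended on single libraries and on the scaling. Left out in turn, 6 of the 10 libraries ended the call of Fetub. Without replicate D of the refed controls none of the 3 was called, without replicate A of the refed controls only Fetub of those 3, and without replicate D of the fasted controls only Alb. With raw library totals in place of TMM the median log2 difference of all genes moved from 0.01 to 0.25 and the genes called from 3436 higher and 3234 lower to 5274 and 1869, Alb stood at 0.67, Afm at 0.62, and Fetub at -0.10 (edgeR adjusted p = 0.57). Afp and Ttr were then called too, at 0.82 and 0.49 (edgeR adjusted p = 0.0111 and 0.00579), and Gc and Ahsg changed sign to 0.06 and 0.05. Afp was also called by limma-voom (adjusted p = 0.00955) and Ttr with the gene length trend removed (edgeR adjusted p = 0.0369), while Fetub lost its call with that trend removed, with the replicate block and with only the compared groups fitted. Cell markers differed in the same comparison, in which edgeR called 46.9% of all genes. Of 10 Kupffer cell markers 7 were called lower and none higher (median log2 difference -0.73, summed levels 308 to 456 against 564 to 888 CPM). Of 10 hepatocyte markers 2 were called higher and 4 lower (median -0.40). Endothelial markers went both ways, with Stab1 and Pecam1 called higher (0.76 and 0.67) and Ptprb and Clec4g lower (-0.40 and -0.33). So did cholangiocyte markers, with Sox9 called higher (0.79) and Spp1 lower (-1.09). Their part in the members' differences was not tested.

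Against fasted chow controls, also across tables, no member was called in western controls (1.81% of 14234 genes) or in high-fat controls (8.46%) by edgeR, DESeq2 or limma-voom. At an unadjusted p under 0.05 edgeR had none on western diet (14.7% of all genes) and Alb on high-fat diet (23.3%). Alb differed by -0.04 ± 0.13 on western diet (edgeR adjusted p = 0.927) and by -0.27 ± 0.13 on high-fat diet (edgeR adjusted p = 0.211). In the high-fat controls 7 of the 10 hepatocyte markers fell against chow controls, with a median log2 difference of -0.75 over the 10, and that list summed to 18783 to 25565 CPM against 30721 to 36277. The 7 members had a median of -0.03 there.

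Livers of the same group also differed from one another, and these differences were compared between members after removing the group means, so that no knockout or diet difference entered. The levels of each liver, however, were among the values by which the family was chosen. The correlations between members and their p-values are therefore descriptions, and nothing is supported with them. Over the 46 livers Alb and Afm deviated together (Pearson r = 0.81, Spearman rho = 0.80, permutation p = 1e-05, the smallest that 100000 permutations within groups can give, and 6e-05 adjusted over the 6 pairs with Alb). Within the tables r was 0.65 (fasted chow, 11 livers), 0.68 (refed, 8), 0.92 (Cav1, 8) and 0.83 (diet, 19), and without the 2 livers farthest in Alb it was 0.76. Alb and Ttr followed (r = 0.64, rho = 0.61, adjusted permutation p = 0.00021 and 0.00042, raw p = 7e-05 and 0.00014), with 0.41, 0.37, 0.61 and 0.74 in the tables in that order and 0.59 without those 2 livers. Alb and Gc were less close (r = 0.41, rho = 0.37, raw permutation p = 0.00757 and 0.0159, adjusted 0.0151 and 0.0318), with 0.35, 0.15, 0.87 and 0.38 in the tables and 0.38 without the 2 livers.

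Over all livers no relation of Alb with the fetuins passed the test. The r with Ahsg was 0.09 (rho = 0.10, permutation p = 0.579 and 0.529) and with Fetub 0.16 (rho = 0.18, permutation p = 0.328 and 0.273), and with Afp 0.23 (rho = 0.19, permutation p = 0.144 and 0.217). None of these passed adjustment over the 6 pairs (lowest adjusted p = 0.216 for r), and within the tables the r of Alb with Ahsg ran from -0.58 (refed) to 0.53 (Cav1). With Fetub it was 0.46 in the fasted chow table, -0.13 in the refed, 0.80 in the Cav1 and -0.12 in the diet table.

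Over all 21 pairs of members, a family of tests added after the data were seen, 2 pairs came next to Alb and Afm in r. Their p-values are descriptions too. Afm and Ttr had r = 0.79 (rho = 0.77, permutation p = 1e-05 each, 7e-05 adjusted over 21 pairs) and from 0.51 to 0.85 within the tables. Gc and Fetub, on different chromosomes, had r = 0.79 (rho = 0.76, permutation p = 1e-05 each, 7e-05 adjusted), with 0.91, 0.52, 0.83 and 0.70 within the fasted chow, refed, Cav1 and diet tables. Without the 2 livers farthest in the first gene of each pair r was 0.74 for both. The neighbours Ahsg and Fetub had r = 0.58 (rho = 0.58, raw permutation p = 0.00052 and 0.00048, adjusted 0.00218 and 0.00202), with 0.76, 0.81 and 0.58 in 3 tables but -0.32 in the refed one, and 0.54 without the 2 farthest livers. Gc and Ahsg (r = 0.43, rho = 0.45) and Afp and Ahsg (r = 0.46, rho = 0.43) passed adjustment too, each at an adjusted permutation p of 0.0213 for r. Afm and Ahsg had r = 0.01 and Ahsg and Ttr -0.08.

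**Figure D4:**
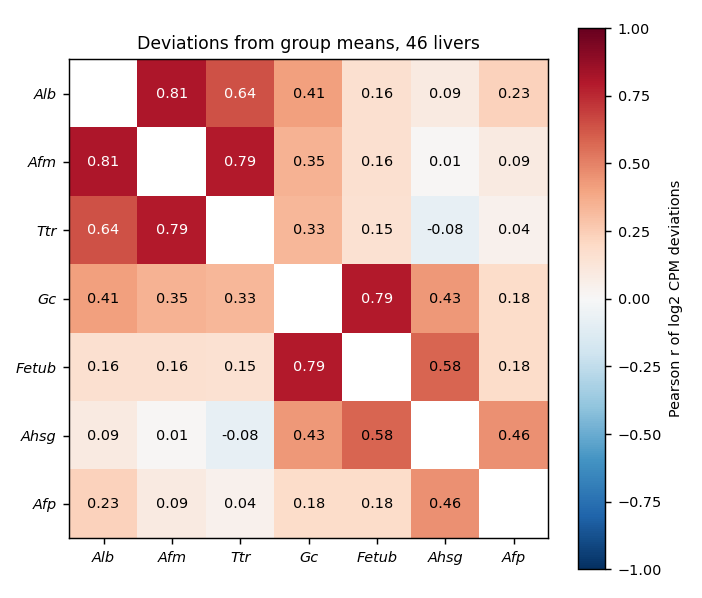
Pearson correlation between members of their log2 CPM deviations from the group mean over 46 livers; each cell is a pair, with its r printed. Alb, Afm and Ttr form a block at the upper left (0.64 to 0.81), Gc and Fetub reach 0.79, and Ahsg with Alb, Afm and Ttr lies between -0.08 and 0.09.

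None of 14 relations between a member's deviations and the total counts or the share of ribosomal protein genes passed adjustment (lowest adjusted permutation p = 0.762 for r and 0.681 for rho over the 46 livers, r from -0.23 to 0.20). With the total counts, however, r without the 2 livers whose totals deviated most from their group was 0.36 for Alb, 0.39 for Afm and 0.40 for Ttr, where it had been 0.09, 0.17 and 0.13. In the Cav1 table r was 0.83, 0.77 and 0.65 for these genes over 8 livers. The part of library size in the correlations among Alb, Afm and Ttr was not tested.

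The genes whose pattern over the 46 livers was most like that of Alb were found by the root mean square difference of log2 CPM, each gene taken relative to the controls of its experiment, among 7592 genes of at least 10 CPM. Hgfac, the activator of hepatocyte growth factor, came first at 0.278, then Afm at 0.292, Gm2a (a lysosomal activator of ganglioside breakdown) at 0.318 and Enpp2 (autotaxin, a secreted lysophospholipase) at 0.325. Ahsg ranked 12, Fetub 34, Ttr 35 and Gc 39, and the median over all genes was 0.659. The knockout contrasts enter this measure, so it is a description.

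Transcription factors known for roles at Alb, Afp and other liver genes were followed as a list of 16. In the Plvap and Cav1 knockouts 1 of them was called, Foxa3, a forkhead factor of hepatocytes, which rose in fasted chow knockouts from 71.1 ± 4.69 to 109 ± 16.2 CPM (log2 fold change 0.62 ± 0.09). In the refed, western, high-fat and Cav1 experiments Foxa3 stood at -0.34 ± 0.24, 0.23 ± 0.17, 0.12 ± 0.16 and 0.47 ± 0.14 and was not called. The list's median log2 fold changes were -0.06, 0.01, -0.08, 0.11 and -0.12 in the fasted chow, refed, western, high-fat and Cav1 experiments. Hnf4a was 554 ± 28.3 and 615 ± 81.4 CPM in fasted chow controls and knockouts, and Cebpa 641 ± 110 and 621 ± 79.6.

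Between refed and fasted controls, where edgeR called 46.9% of all genes and 3436 of 14234 were higher, 5 of the 16 factors rose and none fell. Among these were Zhx2, Hnf4a and Zbtb20 (log2 differences 0.64 ± 0.13, 0.60 ± 0.15 and 0.50 ± 0.19), and Foxa3 (0.41 ± 0.17). Zhx2 and Zbtb20 are known as repressors of Afp. On western diet Zhx2 rose against chow controls (0.47 ± 0.13, edgeR adjusted p = 0.042), and on high-fat diet the circadian factors Tef and Dbp did (0.82 ± 0.20 and 2.01 ± 0.51, edgeR adjusted p = 0.00824 and 0.0131).

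Partners of the carriers, such as Rbp4, which travels on transthyretin, Cyp2r1, the vitamin D 25-hydroxylase, and Fcgrt, which rescues albumin from breakdown, were followed as a list of 10. Of these, 7 or 8 were tested in each knockout experiment and none was called by edgeR. In refed against fasted controls 4 of the 8 tested were called, close to the 46.9% of all genes. Cyp2r1 and Fcgrt fell (log2 differences -0.73 ± 0.17 and -0.25 ± 0.09), and the receptor genes Lrp1 and Stra6l rose (0.46 ± 0.16 and 0.27 ± 0.11). On high-fat diet against chow controls Lrp1 rose (0.57 ± 0.15, edgeR adjusted p = 0.0126) and Rbp4 fell (-0.33 ± 0.09, edgeR adjusted p = 0.0232). On western diet Cyp2r1 fell against chow controls (-0.70 ± 0.16, edgeR adjusted p = 0.0121). Of 10 fetal liver genes 3 to 5 were tested, and Peg3 fell in fasted chow knockouts (-0.93 ± 0.16).

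Other plasma protein genes of hepatocytes, a list of 44, show how the members compare with secreted liver proteins at large. In fasted chow Plvap knockouts 41 of the 44 had a positive log2 fold change, with a median of 0.28 beside 0.56 for the 7 members, and 4 rose and none fell. These were Agt, the angiotensinogen gene (0.53 ± 0.11), Kng2, a kininogen (0.61 ± 0.14), Fga, a fibrinogen chain (0.57 ± 0.14), and Hrg, histidine-rich glycoprotein (0.60 ± 0.15). After refeeding 39 were positive (median 0.19), on western diet 34 (0.15), and on high-fat diet 36 (0.25), with Serpina1b called on high-fat diet (0.52 ± 0.10) and no other gene in these 3 experiments. In Cav1 knockouts 31 were positive (median 0.14). Of these 6 rose, among them Apoa1 and Itih3 (0.80 ± 0.11 and 0.78 ± 0.13), and 3 fell, the protease inhibitor genes Serpina1e, Serpina1d and Serpina1b (-4.28 ± 0.25, -1.12 ± 0.10 and -0.46 ± 0.09).

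**Figure D5:**
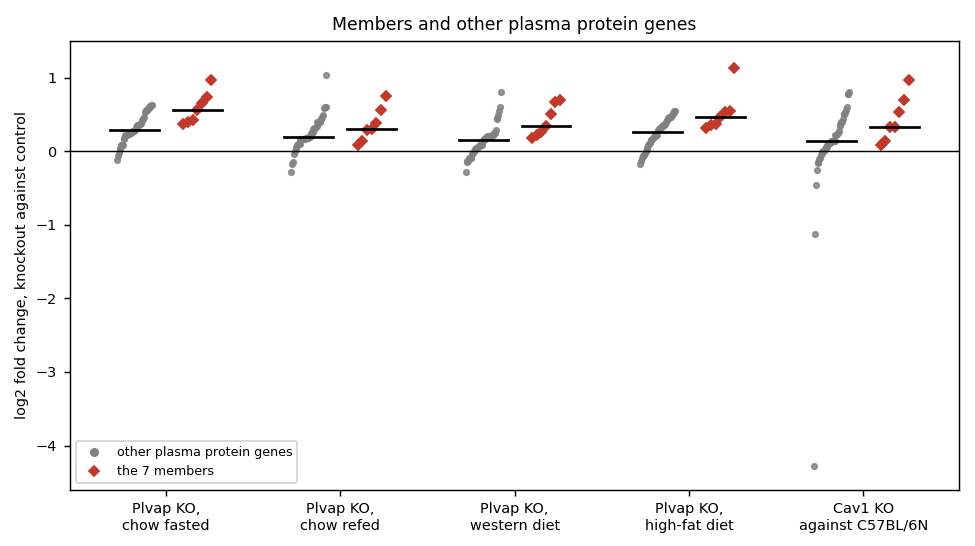
Log2 fold change in knockout against control livers of the 44 other plasma protein genes (grey) and of the 7 members (red) in the 5 knockout experiments, each set placed in order of value, with bars at the medians. The medians are 0.28 and 0.56 in fasted chow livers, and the lowest grey point in the Cav1 experiment is Serpina1e at -4.28.

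The 10 hepatocyte markers outside the family were not called in any knockout experiment, with median log2 fold changes of 0.02, 0.05, -0.19, 0.16 and -0.03 in the fasted chow, refed, western, high-fat and Cav1 experiments. Markers of other cells moved with the members in part. Of 10 Kupffer cell markers, 9, 9, 7, 8 and 10 had a positive log2 fold change in the same order, none called, and their summed levels were 564 to 888 and 790 to 1123 CPM in fasted chow controls and knockouts, 308 to 456 and 404.2 to 474 after refeeding, 612 to 1192 and 693 to 1115 on western diet, 676 to 1100 and 501 to 1335 on high-fat diet, and 273 to 388 and 338 to 558 in the Cav1 experiment. Red cell genes summed to 416.4 to 604 CPM in fasted chow controls and 477 to 1466 in knockouts. Stellate cell markers summed to 360 to 503 and 430.5 to 442 CPM there, and 1 of 8 pancreas markers, Cela2a, was called (0.863 ± 0.142 to 1.79 ± 0.498 CPM), while Cela1 was 17.9 ± 2.29 and 18.6 ± 5.29 CPM, Prss2, Cpa1 and Amy2a5 were at 0 in both groups, and Prss1, Pnlip and Ins2 had means of at most 0.014 CPM. Of 10 endothelial markers Lyve1 was called higher (log2 fold change 0.64 ± 0.15) and Ptprb lower (-0.40 ± 0.09) in fasted chow knockouts, with summed levels of 255 to 292 and 223 to 269 CPM. In Cav1 knockouts Clec4g was called lower (-0.68 ± 0.09), with 399 to 460 CPM in wild types and 261 to 417.4 in knockouts for that list, and the stellate marker Lum higher (1.16 ± 0.19). The share of ribosomal protein genes was 1.501 to 1.78% in fasted chow controls and 1.72 to 1.92% in knockouts, and 0.848 to 0.929% in wild types against 0.884 to 2.20% in Cav1 knockouts. Log2 fold change ran against gene length across genes in 4 experiments (Spearman -0.21, -0.15, -0.11 and -0.29 for fasted chow, western, high-fat and Cav1) and not after refeeding (0.27), genes not being independent replicates. The part of these in the members' differences was not tested, apart from a fit with the trend on gene length removed, in which Alb had log2 fold changes of 0.92, 0.81, 0.64, 1.09 and 0.46 in the fasted chow, refed, western, high-fat and Cav1 experiments and was no longer called in the last.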

How the data were processed

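Total RNA of 46 livers was sequenced after a NEBNext Ultra library preparation, per the labels' protocols. The submitters' processing notes name STAR 2.7.8a, featureCounts 2.0, FastQC 0.11.9, MultiQC 1.10.1 and the build GRCm39; the annotation release and the counting strand are not given in the sources used here. The authors deposited 4 tables of raw counts per Ensembl gene without normalization, and per the file headers a column of another unit, exon length in bases. Codes in the headers tied all 46 count columns to labelled samples, and 0 columns of other samples were present. Groups come from the labels. The free-text protocol gives a 12 h fast also for the refed and Cav1 experiments, and the sample characteristics, which give 10 h with 2 h of refeeding and 6 h, were used. Nothing in the labels says that livers of a group were prepared on separate days, and p-values measure the spread between these livers.

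Symbols were joined by Ensembl identifier for 52083 of 55416 genes (94.0%; the others hold 0.764% of counts). Each comparison was fitted with edgeR 4.0.16 in R 4.3.3: TMM, filterByExpr (minimum count 10, minimum total 15), robust quasi-likelihood F-test, Benjamini-Hochberg adjustment over all genes tested, and calls at 0.05. The Plvap effects on chow and the Cav1 effect used their own table, the diet comparisons the 4 groups of the diet table, and comparisons with fasted chow controls the 8 groups of the Plvap line. Levels are CPM with TMM over all 46 livers. Correlations used 100000 permutations within groups, two-sided. The totals set the precision of a share by counting error only, since PCR copies were not told apart from molecules. No pair of libraries among 85 within groups was identical. Simulated counts were used to test the fit.

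Same-lettered refed livers deviated together (correlations over genes 0.24 to 0.29 in all 4 pairs), so the letter was taken to pair them. In the other experiments it was not (-0.22 to 0.33). The main refed fit and the permutations within groups did not use this pairing, which entered only in the replicate block. Alternatives were DESeq2 1.42.0, its size factors, upper quartile factors, raw totals, totals and TMM without the members, limma-voom (limma 3.58.1) with quality weights, a 1 CPM filter or none, the replicate block, removal of a gene length trend or of mitochondrial genes, fits on the 2 compared groups alone, and leaving out each library.

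The members and lists were chosen with earlier results of these data known. Named were all 7 members, up to 4 called genes with the smallest p of each list other than cell markers, Plvap, Cav1 and Lrat, and the 5 genes most like Alb. Hnf4a, Cebpa, Rbp4, Gm43449 and Cela2a in the knockout comparisons were added after their values were seen. So were Foxa3 in the refed comparison and in the knockout comparisons where it was not called, and the endothelial and cholangiocyte markers of the refed comparison. Some results under this rule are not reported here.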

Additional observations from a re-analysis of the deposited data

Results flagged for a closer look

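Of 70 groups of livers, 10 for each of the 7 members, 6 held a liver whose gap to the nearest other was more than the 95% limit of Dixon's test, and chance sets apart about 1 in 20 groups. For Alb these were replicate B of the fasted chow Plvap knockouts (76454 CPM, the others 56598 to 59707), replicate E of the high-fat Plvap knockouts (74205 CPM, the others 50190 to 55307) and, below its group, replicate A of the C57BL/6N wild types (44888 CPM, the others 52897 to 54646). Without the first 2 of these the log2 fold changes of Alb were 0.87 and 1.00 and stayed called. Without replicate A of the wild types it was 0.48 and was no longer called. Nothing is read from calls that stood, fell or were added with a liver left out, because the family was chosen with these contrasts in view.

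Replicate D of the refed Plvap knockouts was low in Afm (179 CPM, the others 222 to 225). Replicate C of the fasted chow Plvap knockouts was low in Gc (5001 CPM, the others 6103 to 6611), and without it Gc was called too (log2 fold change 0.45). Replicate A of the refed controls was low in Afp (1.31 CPM, the others 2.51 to 2.86), a gene with few counts.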

How the results depend on the processing

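No called member changed direction under any alternative, which is a description for members chosen with the knockout contrasts in view. Nothing is read from calls of members that stood or fell. Between western and high-fat diet, or between either diet and chow, 0 members were called under each alternative. In fasted chow livers 4 members were called (6 with DESeq2 or no filter, 5 with limma-voom or the replicate block, and 2 to 5 with a library left out). After refeeding the count of 0 became 2 with DESeq2, 2 with no filter on low counts and 1 with limma-voom, and was 0 with the replicate block. On western diet it was 0, and 1 with DESeq2 and with no filter. On high-fat diet 1 member was called, but 3 with DESeq2, 2 with no filter and 2 with limma-voom, and 1 to 2 with a library left out. In the Cav1 experiment the 2 called members became 3 with DESeq2 or no filter, Afp being added, and 1 with raw library totals, the replicate block or the gene length trend removed, and 1 to 2 with a library left out. Of the 3 called between refed and fasted controls 0 to 3 were called with a library left out, 2 with the replicate block or only the compared groups, and 4 with raw library totals or limma-voom. The replicate block changed no other count of members called. In knockout livers alone, a choice made after seeing the data, Alb and Gc had r = 0.37 (adjusted permutation p = 0.179), and over the alternatives r was 0.76 to 0.84 for Afm and 0.59 to 0.68 for Ttr.

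Counts over all genes depended more on the tool. In fasted chow livers 289 genes were called by edgeR, 713 by DESeq2, 530 by limma-voom, 861 with no filter and 713 with the replicate block. After refeeding 3 became 59, 10, 131 and 30 in the same order. In the Cav1 experiment 607 became 939 with DESeq2 and 1279 with no filter, on high-fat diet 38 became 244, 102 and 99, and on western diet 2 became 21, 17 and 10, with DESeq2, limma-voom and no filter. For the difference between diets, 0 became 10 with no filter. Between the diets 283 became 591 with DESeq2 and 527 with limma-voom in controls, and 1143 became 1751 with limma-voom and 523 with the replicate block in knockouts. Against chow controls, 258 (1.81% of the genes edgeR tested) became 2.83% with DESeq2, 136 genes with only the compared groups and 166 with the replicate block on western diet, and 1204 became 2421 with limma-voom and 731 with no filter on high-fat diet. With raw library totals, genes called higher and lower went from 149 and 134 to 116 and 177 between diets in controls, and from 599 and 605 to 876 and 325 between high-fat and chow controls. The causes were not tested. Afp, with few counts, is limited by depth.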

Other observations

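The genes around the 2 clusters were looked at after the data were seen. On chromosome 16 the fetuins are followed by 3 further genes of secreted liver proteins with cystatin-like domains, Hrg (22769822 to 22780406), Kng2 (22804604 to 22848232) and Kng1 (22876615 to 22900828). In fasted chow Plvap knockouts their log2 fold changes were 0.60, 0.61 and 0.60, close to those of Ahsg (0.56) and Fetub (0.65) beside them. Hrg and Kng2 were called by edgeR while Kng1 was not. Such values were not particular to this run of genes. In the same livers other plasma protein genes ranged from -0.12 (Apob) to 0.63 (Hpx), with Fga at 0.57 and Trf at 0.56. Before this run Gm30505, a predicted gene that overlaps Ahsg on the other strand, had 0.41 and Dnajb11, a chaperone gene, 0.03, and after it Eif4a2, a translation factor gene, had 0.30, none of them called. In Cav1 knockouts Ahsg stood at 0.70, but Hrg, Kng2 and Kng1 at -0.03, 0.14 and 0.14. The fetuins, Hrg, Kng2 and Kng1 ran from 0.14 to 0.40 after refeeding, 0.20 to 0.34 on western diet and 0.30 to 0.54 on high-fat diet. Whether these genes differ between the experiments was not tested.

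On chromosome 5 the run of higher values in fasted chow knockouts covered Alb (0.96), Afp (0.42) and Afm (0.73), with Ankrd17 before it at -0.12 and 5830473C10Rik and Rassf6 after it at 0.12 and -0.29. Gm43449, the predicted gene opposite Afp, stood at 1.14 and was called, and its reads cannot be told apart from those of Afp.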
